A study of Drosophila melanogaster with 4 samples.

Results

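The genes described here are 9 genes of post-transcriptional control whose Piwi-bound reads were chosen, with both deposited values in view, as reads lost when the protein Yb lacks its Hel-C domain. They are msi, unk, brat, Tis11, eIF4EHP, Imp, roq, Hrb27C and pum, picked by name from the 13931 gene rows of the deposited table, which also holds 133 transposon rows. The libraries came from OSC, a Drosophila melanogaster line of ovarian somatic cells, grown at 26 degrees and transfected by nucleofection. The plasmid put into the cells encoded Yb without Hel-C in 2 libraries (Yb ΔHel-C) and intact Yb in the other 2 (Yb WT). All 4 libraries, the Yb WT ones included, also received an siRNA against Yb (siYb), and in all of them RNA of 23 to 30 nucleotides was cloned after purification with a Flag antibody of Piwi complexes. The table gives 1 value per group and row, in RPM (reads per 1000000 reads), so no difference below has a replicate check.

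Piwi is the nuclear Argonaute protein of these cells and carries Piwi-interacting RNAs (piRNAs), short guides that direct transposon silencing. Yb, a Tudor-domain protein, collects precursor transcripts of piRNAs in cytoplasmic Yb bodies, where they are handed on for processing and loading. Besides transposon and cluster transcripts, the mRNAs of some protein-coding genes are cut into piRNAs in these cells, often from their 3' untranslated parts. A read on a gene is therefore a short RNA from the purified Piwi complexes that was assigned to that gene, and not a measure of its mRNA or protein. The 9 proteins act on mRNAs after transcription. Brat and Pumilio bind sites in mRNAs and, with Nanos, repress translation, and eIF4EHP binds the cap without starting translation and serves as their effector. Musashi (msi), Unkempt (unk), Tis11 and Roquin (roq) bind mRNAs and lower their translation or stability. Imp and Hrb27C are RNA-binding proteins that also act in mRNA localisation and, for Imp, in mRNA stabilisation.

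The depth of each column was read from its values, which step by what 1 read is worth (0.357 RPM in Yb ΔHel-C and 0.338 RPM in Yb WT). The totals were 2803305 and 2955141 reads, of which 78.9% in Yb ΔHel-C and 64.2% in Yb WT lay in gene rows. Intervals below are exact 95% intervals that cover counting error only, and reads without molecular identifiers are not independent molecules. Of the markers of ovarian soma all 6 had reads, with summed levels of 10074 RPM in Yb ΔHel-C and 9571 RPM in Yb WT. These sums cover unlike changes, since tj had 4481 RPM in Yb ΔHel-C and 6972 RPM in Yb WT. Of the 6, 3 were at least 2-fold higher and none 2-fold lower. Over all genes averaging 1 RPM or more, 44.9% were higher and 4.98% lower. The 7 germline markers summed to 25.3 RPM in Yb ΔHel-C and 42.0 RPM in Yb WT. Most of this was on grk (14.6 and 26.7 RPM) and aub (4.99 and 10.8 RPM). On few reads, vas (2 reads and 0 reads), nos (4 and 2 reads) and AGO3 (5 and 4 reads) went the other way. The 4 hemocyte markers summed to 94.5 RPM in Yb ΔHel-C and 54.8 RPM in Yb WT, all of it on Pxn (69.9 and 41.3 RPM) and srp (24.6 and 13.5 RPM), while Hml and NimC1 were listed at 0 in both columns. The part of these reads in the results below was not tested. Reads of fs(1)Yb, the gene of Yb, were 645 RPM in Yb ΔHel-C and 406 RPM in Yb WT, and since plasmid and endogenous RNA are not separated they do not check the siRNA or the plasmid.

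Reads on the 9 genes together were 11037 RPM in Yb ΔHel-C and 29247 RPM in Yb WT, a 2.65-fold lower level (2.62 to 2.68). In such values, less of a transcript in the cells and fewer of its fragments on Piwi cannot be told apart. As a share of the reads in gene rows, a quantity that does not depend on the scaling, they were 1.40% in Yb ΔHel-C and 4.56% in Yb WT. Without Imp, the most read of them, the other 8 genes summed to 6420 RPM and 18767 RPM, 2.92-fold lower (2.87 to 2.97). Of the 9 genes, 8 were at least 2-fold lower on a log2 scale of RPM + 0.5 and pum was not. The same threshold was passed downward by 4.98% and upward by 44.9% of the 7577 genes whose 2 values averaged 1 RPM or more, a filter that all 9 genes passed. Since the genes were chosen on this contrast, their count is a description of the choice, and nothing is read from its distance to that background.

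**Figure D1:**
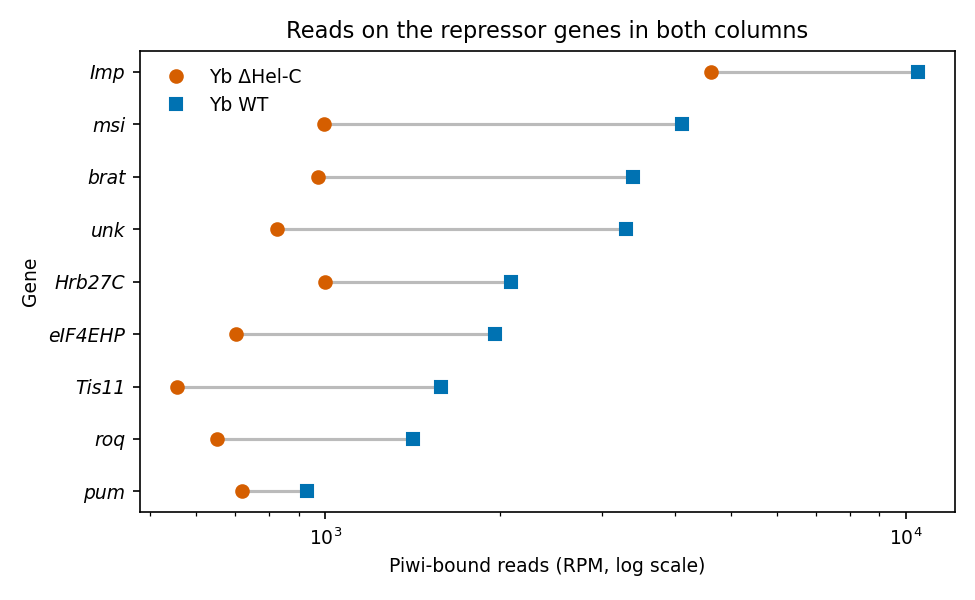
Level of each of the 9 genes (rows) in RPM on a log axis, with circles for Yb ΔHel-C and squares for Yb WT, 1 deposited value per group. Every circle lies left of its square, with the widest gap for msi (997 and 4111 RPM) and the narrowest for pum (719 and 932 RPM).

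The genes of the Pumilio and Brat repression system differed among themselves. brat, whose protein is a TRIM-NHL repressor that binds RNA through its NHL domain, had 2726 reads (972 RPM) in Yb ΔHel-C and 9999 reads (3384 RPM) in Yb WT, 3.48-fold lower (3.33 to 3.63). eIF4EHP had 701 RPM in Yb ΔHel-C and 1961 RPM in Yb WT, 2.80-fold lower (2.66 to 2.95). pum, whose protein is the founding member of the PUF family of RNA-binding repressors, had 2016 reads (719 RPM) in Yb ΔHel-C and 2754 reads (932 RPM) in Yb WT, 1.30-fold lower (1.22 to 1.37). Its interval does not overlap that of any other of the 9 genes. A ratio of reads between a pair of genes does not depend on the scaling of the columns. There were 1.35 reads of brat per read of pum in Yb ΔHel-C and 3.63 in Yb WT, so that this ratio was 0.372 times as large in Yb ΔHel-C (Wald interval 0.347 to 0.400, counting error only). nos, whose protein joins them on hunchback mRNA in the embryo, had 4 reads in Yb ΔHel-C and 2 reads in Yb WT, too few for a comparison at this depth.

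The lowest ratios belonged to msi and unk. msi encodes a protein with a pair of RNA recognition motifs that represses tramtrack mRNA in sensory organ precursors, and it had 2795 reads (997 RPM) in Yb ΔHel-C and 12150 reads (4111 RPM) in Yb WT. Its level was 4.12-fold lower (3.96 to 4.30). unk encodes a zinc finger protein that acts with Headcase, and it had 827 RPM in Yb ΔHel-C and 3298 RPM in Yb WT, 3.99-fold lower (3.81 to 4.17). The intervals of these genes overlap, so their order is not resolved even against counting error, whereas brat lies below both in fold and its interval overlaps neither. The rank of msi among all gene rows, ordered by RPM with no correction for length, was 117 in Yb ΔHel-C and 11 in Yb WT. That of unk was 160 in Yb ΔHel-C and 20 in Yb WT.

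The genes of mRNA decay were lower by smaller factors. Tis11, whose protein binds AU-rich elements through CCCH zinc fingers and speeds mRNA decay, had 555 RPM in Yb ΔHel-C and 1580 RPM in Yb WT, 2.84-fold lower (2.68 to 3.01). roq, whose protein binds stem-loops in mRNAs and brings in the deadenylase, had 651 RPM in Yb ΔHel-C and 1417 RPM in Yb WT, 2.18-fold lower (2.06 to 2.30). The intervals of Tis11 and eIF4EHP overlap, and those of roq overlap with the intervals of both Imp and Hrb27C.

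Imp and Hrb27C were lower by a factor close to the threshold. Imp, whose protein binds RNA through KH domains, was the gene row with the most reads in Yb WT (30971 reads, 10480 RPM) and ranked 5 in Yb ΔHel-C (12943 reads, 4617 RPM), 2.27-fold lower (2.22 to 2.32). Hrb27C, an hnRNP of the A/B type that takes part in the control of oskar and gurken mRNAs, had 997 RPM in Yb ΔHel-C and 2085 RPM in Yb WT, 2.09-fold lower (1.999 to 2.19). Syp, which encodes the RNA-binding protein that opposes Imp in neuroblasts, was 2.40-fold lower (2.27 to 2.55). There were 7.89 reads of Imp per read of Syp in Yb ΔHel-C and 7.46 in Yb WT, a ratio that differed by less than counting error (1.06 times, 0.996 to 1.12). sqd, whose protein works with Hrb27C on gurken mRNA, was 1.96-fold lower (1.89 to 2.03), and Hrb27C had 0.661 reads per read of sqd in Yb ΔHel-C and 0.705 in Yb WT.

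All 9 log2 folds lay below 0 with the authors' totals. Each of 3 other scalings lowered the folds of all 9 genes, so their staying below 0 was fixed in advance. The median over the 9 genes was -1.48 on the authors' totals, -1.78 when scaled to the gene reads, -2.37 with edgeR's TMM factors and -2.41 with its RLE factors. These scalings moved the median of all 7577 genes, 0.89 on the authors' totals, by -0.27, -0.83 and -0.87. On the TMM and RLE scales pum also passed 2-fold, with log2 folds of -1.26 and -1.30, where 15.3% and 15.9% of all genes were at least 2-fold lower and 11.7% and 10.6% at least 2-fold higher. When scaled to the gene reads, where pum was at -0.67, 7.35% of all genes were at least 2-fold lower and 32.6% higher. With those factors 43.2% (TMM) and 39.9% (RLE) of the genes past 2-fold were higher, against 90.03% on the authors' totals and 81.6% when scaled to the gene reads.

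**Figure D2:**
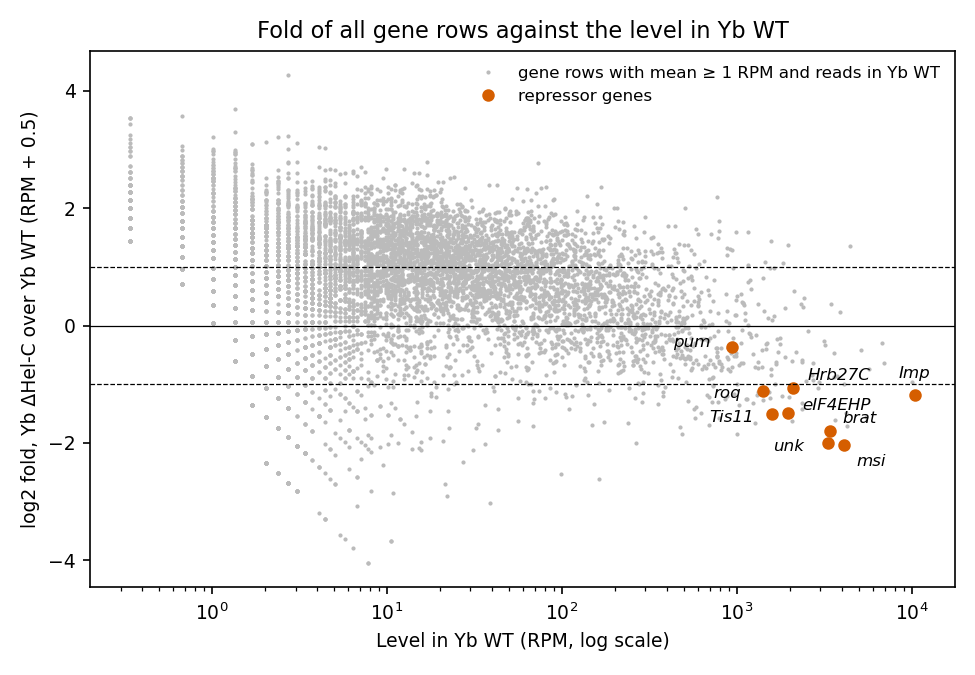
The log2 fold of Yb ΔHel-C over Yb WT on RPM + 0.5 (vertical axis) against the level in Yb WT in RPM (log axis) for gene rows averaging 1 RPM or more and with reads in Yb WT (grey), with the 9 genes in orange and dashed lines at 2-fold. The cloud lies above 0 at low levels and mostly below 0 at 1000 RPM or more, where 8 of the 9 genes are.

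Genes with many reads in Yb WT were lower as a class. The 2783 genes with 10 to 100 RPM in Yb WT had a median log2 fold of 0.98, the 963 genes with 100 to 1000 RPM one of 0.33 and the 111 genes above that one of -0.48. Of these 111 genes, 28 (25.2%) were at least 2-fold lower and 7 (6.31%) at least 2-fold higher on the authors' totals. When classes are set by the mean of both columns the median at 1000 RPM or more was -0.20 over 119 genes, and when set by Yb ΔHel-C it was 0.36 over 115 genes, so the direction of this class depends on which column defines it. Levels in RPM carry no correction for length, and transcript lengths were not used here.

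Each of the 9 genes was therefore set beside the genes of like Yb WT level, up to 50 above and 50 below it in that order. Near the top of the order few genes lie above, and levels there differ widely. The neighbours of msi (4111 RPM in Yb WT) ran from 1566 to 10480 RPM in Yb WT. None of the 60 neighbours of msi had a lower log2 fold than its -2.04, and their median was -0.63. Of the 69 neighbours of unk (-2.00) 1 was lower, which was msi, and of the 68 neighbours of brat (-1.80) 2 were lower, which were msi and unk. With other repressor genes left out of the neighbours, none was lower than msi, unk or brat. Of the neighbours of Tis11 (-1.51) 7 of 100 were lower, and of those of eIF4EHP (-1.48) 10 of 92, among them chrb, mei-P26, l(2)gl and Usp10 in both cases. The share of neighbours that were lower thus ran from 0% to 10.9% for these 5 genes. Since the genes were chosen on both values, set against genes of like Yb WT level, these shares describe that choice and test nothing.

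With this matching the other 4 genes lay further inside the range of their neighbours. Of the neighbours of roq (-1.12) 19 of 100 were lower, of those of Imp (-1.18) 13 of 50, and of those of Hrb27C (-1.06) 24 of 88. Imp had the most reads in Yb WT, so its 50 neighbours all lay below it, from 1727 to 10062 RPM. With 25 neighbours of Imp instead of 50, their median moved from -0.64 to -0.88, and 28% rather than 26% were lower. For pum, 51 of 100 neighbours were lower than its -0.37, and their median was -0.38. The value of pum was thus the middle value of genes at its Yb WT level, and its place in a set of genes that lose reads rests on a 1.30-fold difference. Matched on Yb WT level, as the choice of these genes asked, the neighbours' medians ran from -0.64 to -0.38. Matched on the mean of both columns they ran from -0.37 to 0.02, and 38% of the neighbours of pum were then lower than pum. Matched on the level in Yb ΔHel-C, a choice added after seeing the data, the medians ran from 0.40 to 0.60. The share of neighbours that were lower was then 1.85% for Imp, 8% for roq, 9% for Hrb27C and 26% for pum, so the place of these genes among their neighbours depends on the column that sets the level.

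**Figure D3:**
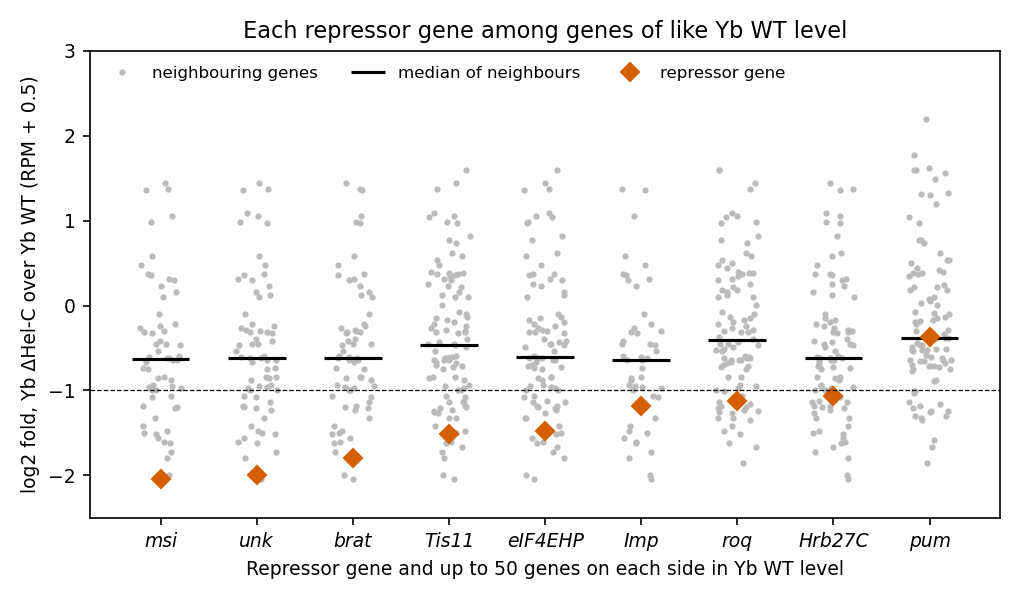
Log2 fold of each of the 9 genes (diamonds) and of up to 50 genes on each side of it in Yb WT level (grey points, with random sideways spread), with the neighbours' median as a bar and a dashed line at 2-fold lower. Matched on Yb WT level, msi, unk and brat sit at the lower end of their neighbours, while pum (-0.37) sits on the median of its neighbours (-0.38).

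The genes most like the set by level and fold are the 28 genes with at least 1000 RPM in Yb WT and a 2-fold lower value, of which 8 are in the set. The other 20, in order of fold, were chrb, mei-P26, l(2)gl, Usp10, PlexA, anne, nmo, myo, CG32767, Map205, Syp, SPoCk, CG11360, Pi3K21B, Dsp1, AGO1, mahe, fmt, Evi5 and BuGZ. Their ratios ran from 3.30-fold lower (chrb, 1299 RPM in Yb ΔHel-C and 4282 RPM in Yb WT) to 2.10-fold lower (BuGZ, 1385 and 2912 RPM). Several encode proteins of other kinds, such as the growth regulator charybde (chrb), the cell polarity protein Lgl and the receptor Plexin A. mei-P26, Syp and AGO1, the Argonaute of microRNAs, act on mRNAs after transcription as the set does.

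The positions of the 9 genes, from the RefSeq annotation of Release 6 (dm6), share no cluster. unk is on 3R from 23149653 to 23157862, eIF4EHP on 3R from 24063077 to 24108960, msi on 3R from 25516118 to 25608423 and pum on 3R from 9066343 to 9237682. brat is on 2L from 19133816 to 19179758 and Hrb27C on 2L from 6920704 to 6932057. Imp is on X from 10787869 to 10824277, Tis11 on X from 12659415 to 12682560 and roq on 3L from 16370938 to 16378566. The loci of unk and Hrb27C overlap no other annotated gene. Those of the other 7 overlap at least 1, as do 51.6% of the 7545 genes that had a position and averaged 1 RPM or more, and whether the authors counted by strand is not stated in the sources used here. Reads on the rows of overlapping genes were few, with 8 reads in Yb ΔHel-C and 5 reads in Yb WT on CG17568 in the brat locus and 0 and 2 reads on ymp in the msi locus. The exception was Syx1A, in the eIF4EHP locus, with 334 RPM in Yb ΔHel-C and 553 RPM in Yb WT, so reads of eIF4EHP and Syx1A may be shared. Annotated lncRNA genes lie in the loci of msi, brat, Tis11, Imp and pum, and microRNA genes in those of msi (mir-1000) and Tis11 (mir-9377). None of these has a row of its own, so the reads of these loci could not be divided either.

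The 9 loci were long. Their length from end to end, introns included, had a median of 36.4 kb, against 2.96 kb over the 7545 genes, and ran from 7.63 kb (roq, at the 77.5th percentile) to 171 kb (pum, at the 99.9th). Locus length played no part in the choice of the genes, but genes with many reads had longer loci in general, with a median of 12.4 kb among the 111 with at least 1000 RPM in Yb WT. Per kb of locus the levels were 101 RPM per kb in Yb ΔHel-C and 402 RPM per kb in Yb WT for unk, the highest of the set in Yb WT, and 4.20 and 5.44 RPM per kb for pum, the lowest. Imp was second in Yb WT at 288 RPM per kb and had the highest value of the set in Yb ΔHel-C, 127 RPM per kb. Since mature transcripts lack introns, these values understate genes with long introns, and the order of levels between genes is uncertain.

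Among the 1069 genes with a position and at least 100 RPM in Yb WT, the log2 fold was lower at longer loci. Its median was 0.59 over the 49 genes under 2 kb, 0.43 over the 236 genes from 2 to 5 kb and 0.33 over the 271 genes from 5 to 10 kb. It was 0.19 over the 231 genes from 10 to 20 kb, 0.05 over the 183 genes from 20 to 50 kb and -0.15 over the 99 genes of 50 kb or more. The share at least 2-fold lower was 2.04% in the shortest class and 12.1% in the longest. Across these genes, which share both libraries and their depth, Spearman's correlation of locus length with log2 fold was -0.245. Across the 111 genes at 1000 RPM or more it was -0.380. Across all 7545 genes with a position and a mean of 1 RPM or more it was -0.166. The sets with the stronger correlations were cut on Yb WT level, which also enters the fold. The 9 genes did not follow an order of length, since unk (8.21 kb) had nearly the lowest fold and pum, the longest, had the highest. The 20 other genes of 1000 RPM or more that were 2-fold lower had a median locus of 13.5 kb, and the 83 genes of that class that were not had 12.0 kb.

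**Figure D4:**
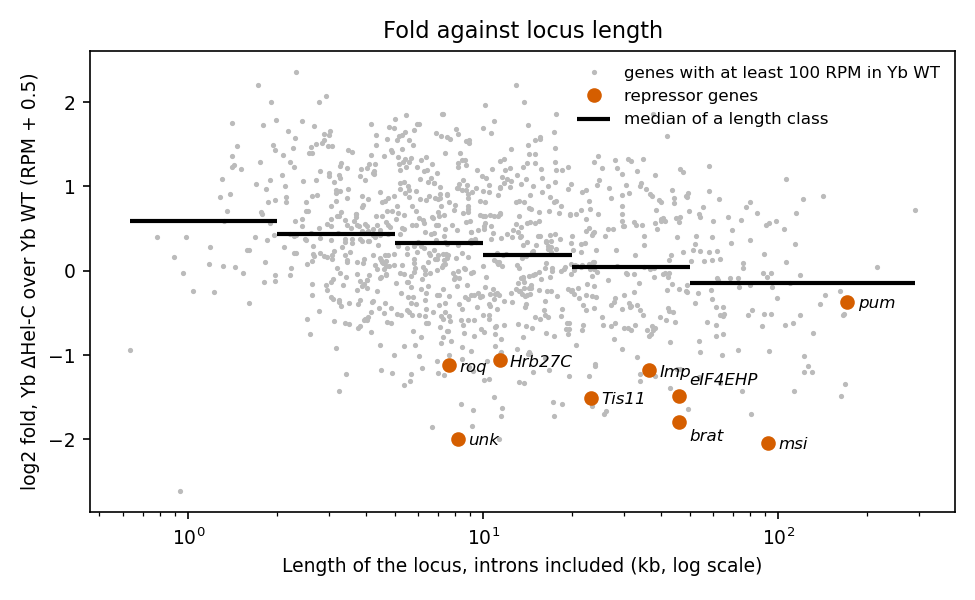
Log2 fold of Yb ΔHel-C over Yb WT on RPM + 0.5 (vertical axis) against locus length in kb (log axis) for 1069 genes with at least 100 RPM in Yb WT (grey), with the 9 genes in orange and the median of each length class as a bar. The bars step down from 0.59 under 2 kb to -0.15 at 50 kb or more, and 8 of the 9 genes lie well below the bar of their class.

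Genes that work with the 9 genes were compared through 6 lists of deadenylases, partners, decapping factors, paralogs, other RNA-binding regulators and known mRNA targets. Of the 70 list genes that averaged 1 RPM or more, 11 were at least 2-fold lower, 16 were at least 2-fold higher and 43 were neither, with a median log2 fold of 0.11 beside 0.89 over all genes. Level separated them. Of the 34 with at least 100 RPM in Yb WT, 7 were lower and 1 was higher, with a median of -0.42, beside 0.24 over all 1074 genes of that level, of which 6.61% were lower and 18.2% higher. Of the 36 under 100 RPM, 4 were lower and 15 higher, with a median of 0.87. Over all 6503 genes of that level the median was 0.98, with 4.71% lower and 49.3% higher. Levels within a class were not matched, and chinmo, sqd, CG11505, DCP2 and other list genes had more than 1000 RPM in Yb WT. Over all 111 genes at 1000 RPM or more the median was -0.48, with 25.2% lower and 6.31% higher.

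Deadenylase genes were close to all genes. The list held 11 genes, cu and genes of the CCR4-NOT and PAN complexes. These complexes shorten poly(A) tails and are brought to mRNAs by several of the 9 proteins. Of the 11 genes none was at least 2-fold lower and 5 were at least 2-fold higher. Their log2 folds had a median of 0.97 beside 0.89 over all genes, of which 4.98% were lower and 44.9% higher. Not1, the scaffold of CCR4-NOT, had 2489 RPM in Yb ΔHel-C and 1415 RPM in Yb WT, 1.76 times as high (1.69 to 1.83), but on the TMM scale its log2 fold was -0.069, the other direction. Not3 had 166 RPM in Yb ΔHel-C and 78.2 RPM in Yb WT, and CG11486, the row of PAN3, had 215 RPM in Yb ΔHel-C and 333 RPM in Yb WT. With TMM and RLE 1 gene was 2-fold lower and 1 higher, beside 15.3% and 15.9% lower and 11.7% and 10.6% higher over all genes.

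Of 10 partner genes 1 was 2-fold lower, 2 were higher and 7 neither, with a median of 0.35. Over all genes 4.98% were lower and 44.9% higher, with a median of 0.89. The gene that was lower was Syp, given above. smg, the gene of the translational repressor Smaug, had 376 RPM in Yb ΔHel-C and 464 RPM in Yb WT, 1.23-fold lower (1.14 to 1.34). hdc, which encodes the Unkempt partner Headcase, had 182 RPM in Yb ΔHel-C and 271 RPM in Yb WT, 1.49-fold lower (1.33 to 1.66), while unk itself was 3.99-fold lower. Of the 8 decapping factors none was lower, 1 was higher and 7 were neither, with a median of -0.15 beside the same values over all genes. DCP2, the decapping enzyme, had 1563 RPM in Yb ΔHel-C and 2359 RPM in Yb WT, tral 1115 RPM and 1467 RPM, and Patr-1 566 RPM and 771 RPM. With TMM and RLE 4 of the 8 were 2-fold lower and 1 higher. Over all genes 15.3% (TMM) and 15.9% (RLE) were then lower, and 11.7% and 10.6% higher.

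Of 31 other RNA-binding regulators 8 were 2-fold lower, 6 were higher and 17 neither, with a median of -0.39, beside 4.98% lower and 44.9% higher over all genes. With TMM 17 were lower and 1 was higher, with a median of -1.28, beside 15.3% lower and 11.7% higher over all genes. Of the 19 at 100 RPM or more in Yb WT 14 had a log2 fold below 0, 6 were 2-fold lower and 1 was higher. Over all 1074 genes of that level 412 were below 0, 6.61% were 2-fold lower and 18.2% higher. Levels within this class were not matched, and at 1000 RPM or more 77 of all 111 genes were below 0. The regulator genes that were lower included orb2 (143 RPM in Yb ΔHel-C and 472 RPM in Yb WT), 3.31-fold lower (2.96 to 3.71). orb2 encodes a CPEB protein of translational control. The splicing regulator genes mbl (222 and 621 RPM), Rbfox1 (212 and 570 RPM) and heph (139 and 353 RPM) were 2.80-fold, 2.70-fold and 2.54-fold lower. orb was 3.54-fold lower (2.41 to 5.34) and shep 2.31-fold lower (1.89 to 2.84), and bru3 rests on fewer than 10 RPM in either column. The most read regulators besides sqd had values short of 2-fold. CG11505, the row of Larp4B, had 1737 RPM in Yb ΔHel-C and 2715 RPM in Yb WT, and larp had 1300 RPM and 1882 RPM.

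The paralogs of the 9 genes differed in direction among themselves. Since the 9 genes were chosen as losing reads, a difference between them and their paralogs tests nothing. mei-P26, a TRIM-NHL relative of brat that acts in germline differentiation, had 397 RPM in Yb ΔHel-C and 1262 RPM in Yb WT, 3.17-fold lower (2.97 to 3.40), and the interval overlaps that of brat. wech, the other TRIM-NHL relative on the list, had 324 RPM in Yb ΔHel-C and 544 RPM in Yb WT, 1.68-fold lower (1.55 to 1.83). Rbp6, the relative of msi, had 13.9 RPM in Yb ΔHel-C and 23.0 RPM in Yb WT, 1.65-fold lower (1.10 to 2.52). Among the hnRNP relatives of Hrb27C, sqd had the same direction, with 1509 RPM in Yb ΔHel-C and 2957 RPM in Yb WT. The others had the opposite direction on the authors' totals, Hrb98DE with 516 RPM in Yb ΔHel-C and 154 RPM in Yb WT and Hrb87F with 170.2 RPM and 67.7 RPM. Their log2 folds of 1.74 and 1.32 were 0.86 and 0.44 with TMM. eIF4E1, the cap-binding factor of general translation, had 49.9 RPM in Yb ΔHel-C and 27.7 RPM in Yb WT, and there were 14.0 reads of eIF4EHP per read of eIF4E1 in Yb ΔHel-C and 70.7 in Yb WT. Of the 9 paralogs that averaged 1 RPM or more, 2 were at least 2-fold lower, 3 were higher and 4 neither. Over all genes 4.98% were lower and 44.9% higher.

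**Figure D5:**
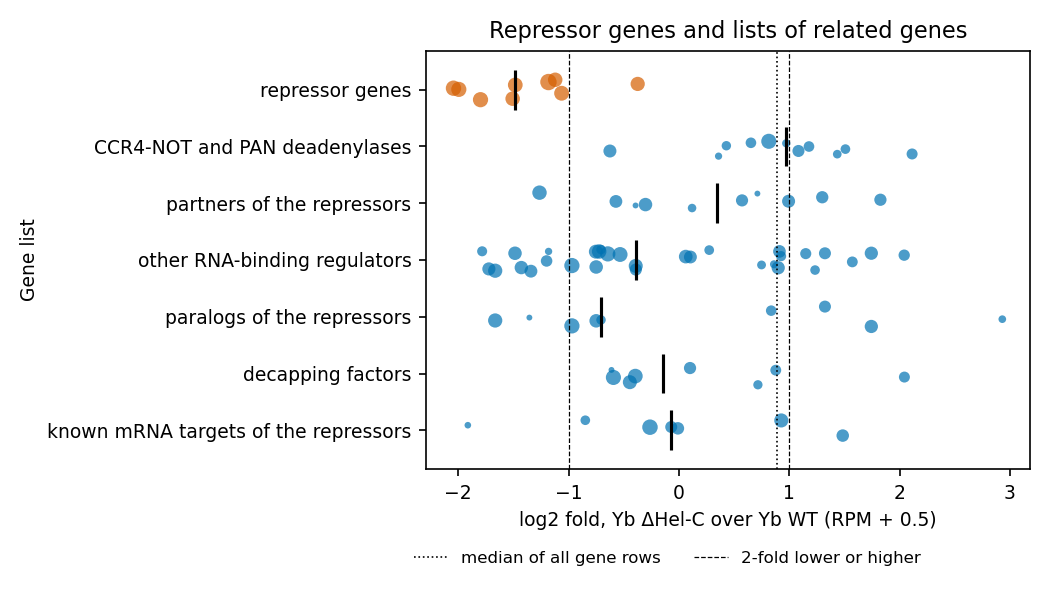
Log2 fold of Yb ΔHel-C over Yb WT on RPM + 0.5 for the 9 genes (orange) and 6 lists of related genes (blue, rows), with larger points for genes with more reads and the list's median as a bar. The 9 genes lie between -2.04 and -0.37, and the deadenylases have a median of 0.97 beside 0.89 over all genes (dotted line).

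Few mRNA targets known from other tissues could be compared. Of 12 target genes 7 averaged 1 RPM or more, with 1 at least 2-fold lower, 1 higher and 5 neither. Their median was -0.07, beside 0.89 over all genes, of which 4.98% were lower and 44.9% higher. The genes hb, cad and Myc were listed at 0 in both columns. chinmo, a target of Imp, had 2610 RPM in Yb ΔHel-C and 3130 RPM in Yb WT, 1.20-fold lower (1.16 to 1.24). ttk, the target of Musashi, had 951 RPM in Yb ΔHel-C and 499.8 RPM in Yb WT, and its log2 fold of 0.93 was 0.044 with TMM. zld, a target of Brat, had 181 RPM in Yb ΔHel-C and 182 RPM in Yb WT. The gene that was 2-fold lower was para, with 3 reads in Yb ΔHel-C and 16 in Yb WT (5.06-fold lower, 1.45 to 27.1), and the gene that was higher was CycB, with 263 RPM in Yb ΔHel-C and 93.7 RPM in Yb WT. Both were named after their values were seen.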

How the data were processed

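Small RNAs from Piwi complexes were measured in 2 Yb ΔHel-C and 2 Yb WT libraries of OSC. The authors deposited 1 table of RPM values with 1 column per group, a unit judged from the values since the header names none. The submitters' processing notes name STAR, HTSeq, BDGP6 and dm6 without saying what each was used for. How libraries were pooled and how strand and multiply mapped reads were handled is not stated in the sources used here. Each column steps by a fixed amount, and 100% of its nonzero values gave a whole number of reads (tolerance 0.01 read), hence the totals. 0 other value columns were present. A count test on these reads needs replicates, so edgeR was not used for testing, no genes were called by a test and no p-value is given. Folds are log2 of RPM + 0.5, which understates changes of low rows, over genes averaging 1 RPM or more. Ratios of RPM have exact conditional (Clopper-Pearson) 95% intervals. The 2-fold calls and intervals were tested on simulated data with 200 changed genes. Those data held counting error only and left all other genes unchanged, so they do not test spread between libraries or a shift of most genes. A count of 0 allows up to 1.07 RPM in Yb ΔHel-C and 1.02 RPM in Yb WT (3 reads), for counting error only, and a row at 0 can also be uncounted. TMM and RLE factors came from edgeR 4.0.16 on the rows kept by the same filter, in R 4.3.3, and other steps used Python 3.11.15. Of the gene rows, 13885 matched the RefSeq table by symbol or by a synonym of 1 gene. The 9 genes and the lists were chosen with earlier results of these data known. Named genes are the 9 genes, those with at least 1000 RPM in Yb WT and 2-fold lower, the 3 most read of each list in Yb WT, list genes 2-fold lower at a mean of at least 10 RPM, and paralogs at that mean, with exceptions stated. Alternatives were other pseudocounts, filters, scalings and neighbours.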

Additional observations from a re-analysis of the deposited data

How the results depend on the processing

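No paired analysis was possible because each group has 1 deposited column with no replicate number, and for the same reason no replicate could be left out. Of the 9 genes, 8 or 9 were at least 2-fold lower under each alternative pseudocount and scaling. The scalings could only keep or raise this count, since each lowered the folds of these genes. Genes at least 2-fold lower numbered 377, against 1163 with TMM, 1208 with RLE, 743 with no filter, 106 at a mean of at least 10 RPM, and, in classes added after seeing the data, 71 and 28 at 100 and 1000 RPM or more in Yb WT. Genes at least 2-fold higher numbered 3403, against 886 with TMM, 803 with RLE, 2158 at a mean of at least 10 RPM, and 195 and 7 in those classes. Related genes that were lower numbered 11, against 30 with TMM, 30 with RLE and 17 scaled to gene reads, and those that were higher numbered 16, against 4 with TMM and 4 with RLE. The cause was not tested, apart from the fewer or more genes that a filter or class leaves. No log2 fold of the 9 genes changed sign, though this was fixed for the scalings, which all lowered these folds. Of 45 alternative values, 18 stayed within the counting interval. Those 18 were the values with other pseudocounts, while all 27 values with other scalings left it. The share of neighbours with a lower fold stayed within its binomial interval in 41 of 54 alternatives. Neighbours by Yb ΔHel-C level and with other repressor genes left out were added after seeing the data. At this depth the direction of nos was not resolved, and the interval of para includes folds under 2.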
